A study of Mus musculus with 7 samples.

Results

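The ATP-binding cassette (ABC) transporter genes were examined in hematopoietic stem cells (HSCs) of mice with and without the aryl hydrocarbon receptor gene (Ahr). The members were the rows of the deposited array table whose platform annotation named exactly 1 gene with a symbol from Abca to Abcg followed by a number. That rule gave 48 genes of the 22180 genes with a probe set of their own, and each of the 48 had 1 probe set, so no choice between probe sets arose. The rule used names only and no measured value.

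The study holds 7 single-channel arrays in 2 groups. The first group is 3 arrays of HSCs labelled Ahr knockout (Ahr-KO), and the second is 4 arrays of HSCs with wild-type Ahr (WT). Both groups are on the C57BL/6J background, and the mice were 8 weeks old. Lineage-positive marrow cells were removed, HSCs were sorted by SLAM-family surface markers, and amplified biotinylated cDNA was hybridised. The labels name no other allele or agent. They do not say which part of Ahr was removed, whether mice were pooled, or whether arrays came from separate mice, so a p-value here reflects the scatter among these arrays alone, and that scatter may be technical.

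ABC proteins bind and split ATP to move lipids, drugs, peptides, metals or bile salts across membranes, and the Abce and Abcf proteins use the same ATPase fold in translation instead. In bone marrow the family is best known for dye efflux. Abcg2 pumps out Hoechst dye and so creates the side population that is rich in HSCs, and the P-glycoproteins encoded by Abcb1a and Abcb1b pump out rhodamine. AhR, once bound by a ligand, pairs with Arnt and binds DNA at a core of GCGTG, and ABCG2 is among the genes known to respond to AhR ligands in cultured human cells.

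The intensities carry no detection call, and 1108 probe sets of olfactory receptors served as a background: a value counted as above it when it passed their 95th percentile on that array, a mark of 33.8 to 42.8. Over all 25335 tested probe sets, 30.7 to 44.9% exceeded it on an array. Of 12 measured HSC and SLAM genes, 6 to 12 exceeded it on an array. Kit, the stem cell factor receptor, did so on all 7. Slamf1, which encodes the CD150 sorting marker, did so on all 3 Ahr-KO arrays and on 1 of the 4 WT arrays. Cd48, which the SLAM gate is meant to exclude, exceeded the mark on 5 arrays, and 8 to 14 of 14 granulocyte and monocyte markers exceeded it on an array. Ahr itself showed no lower signal under the Ahr-KO label: its intensities were 34.1, 137 and 26.4 there and 31.3, 57.9, 14.9 and 20.5 in WT. The part of the gene its probe set covers is not stated, so this does not check the labels. Ahr-KO is used below as the name of the label.

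No ABC gene differed between genotypes at a limma adjusted p under 0.05, and 0 of all 25335 tested probe sets (0%) did. At an unadjusted p under 0.05 there were 3 of the 48 ABC genes, or 6.25%, beside 4.21% of all tested probe sets. These were Abcc9, higher in Ahr-KO (1 gene, beside 1.99% of tested probe sets), and Abcb8 and Abca14, lower (2 genes, beside 2.22%). The genotypes had no overlap in intensity for 2 of the 48 genes, or 4.17%, beside 5.74% of all tested probe sets. Both of these were lower in Ahr-KO, beside 3.13% of tested probe sets, and 0 were higher, beside 2.61%. These counts lie near the background shares. The 48 genes divided into 25 with higher and 23 with lower means in Ahr-KO. Their median log2 difference (Ahr-KO minus WT, of log2(intensity + 1)) was 0.06, beside -0.03 over all genes, and the sign of the ABC median turned in 5 of the 7 fits that left out an array. The median standard error (SE) of a difference was 0.74 for the ABC genes and 0.69 over all genes, so at this number of arrays changes of a few fold in a single ABC gene were mostly not detectable. Granulocyte and monocyte markers had higher means in Ahr-KO for 14 of 14, with array means of 8.16, 9.64 and 8.03 log2 units in the Ahr-KO set against 5.12, 9.49, 8.35 and 7.55 in the WT set. None of the 14 had an unadjusted p under 0.05 or lacked overlap. Other marker lists went both ways. Means were lower in Ahr-KO for 8 of 10 macrophage and dendritic, 6 of 6 B lymphoid and 8 of 12 HSC and SLAM genes. They were higher for 6 of 9 T and NK and 5 of 7 mast cell and basophil genes. Erythroid genes divided into 3 higher and 3 lower, and megakaryocyte genes into 2 higher and 3 lower. Groups did not overlap for 2 of 10 macrophage and dendritic and 1 of 12 HSC and SLAM genes. The same held for 1 of 6 erythroid and 1 of 5 megakaryocyte genes. All were lower in Ahr-KO, beside 5.78% of all genes without overlap. Each of these lists had 1 gene with an unadjusted p under 0.05, as did the stroma and endothelium list, beside 4.02% of all genes. The part of all these markers in the values of the ABC genes was not tested. In sorted bulk cells, fewer cells of a type and less RNA per cell cannot be told apart.

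**Figure D1:**
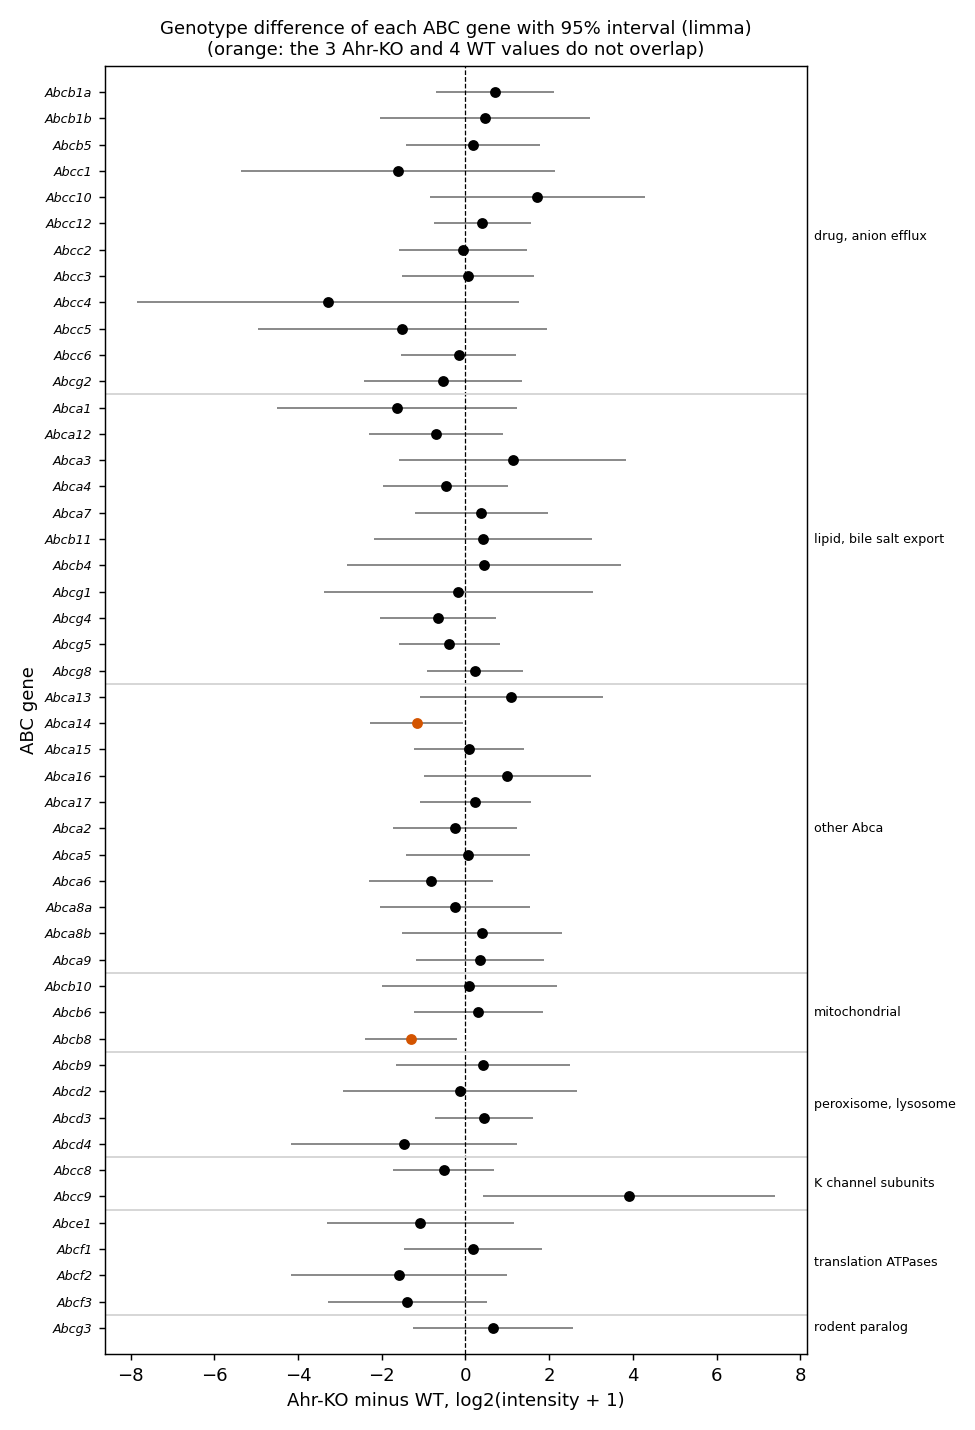
Difference between genotypes for each of the 48 ABC genes, grouped by role; the x axis is Ahr-KO minus WT in log2(intensity + 1), points are limma estimates from 3 Ahr-KO and 4 WT arrays, and bars are 95% intervals. Only the bars of Abcc9, Abcb8 and Abca14 leave out 0, before adjustment, and orange marks the 2 genes whose groups do not overlap.

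Few ABC probe sets stood above the background mark on every array. Only 4 of the 48 genes, or 8.33%, did so on all 7, beside 13.7% of all genes, and 21 of the 48, or 43.8%, did so on none, beside 34.3%. The 4 were Abca2, Abcd3, Abce1 and Abcf1. By array, the mark was exceeded by 9, 18 and 11 ABC genes in Ahr-KO and by 14, 11, 16 and 18 in WT, so the genotypes overlapped. Ahr-KO replicate 2 and WT replicate 4 had the most, and these arrays also had the largest shares over all tested probe sets, 41.9 and 44.9%. WT replicate 4 held the highest value of the 7 arrays for 10 of the 48 genes.

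**Figure D2:**
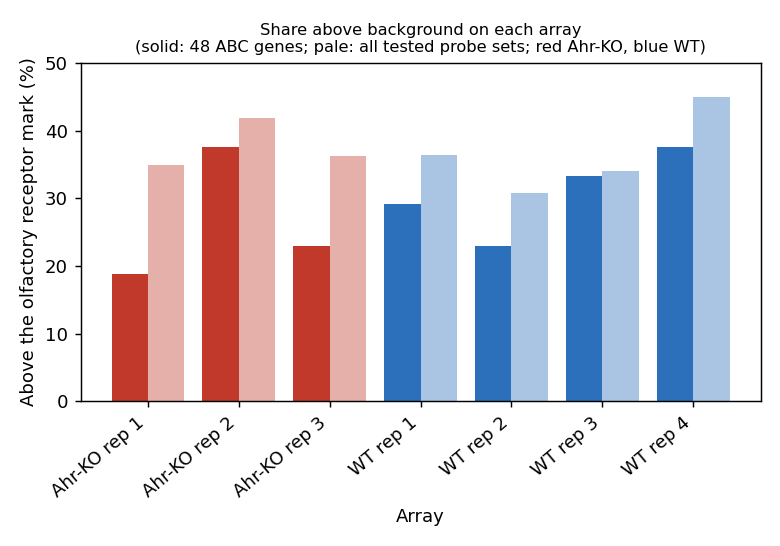
Share of probe sets above the olfactory receptor mark on each array, in percent; solid bars are the 48 ABC genes, pale bars all 25335 tested probe sets, red Ahr-KO and blue WT. The ABC share lies below the share of all probe sets on each of the 7 arrays, and is highest, at 37.5%, on Ahr-KO replicate 2 and WT replicate 4.

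**Figure D3:**
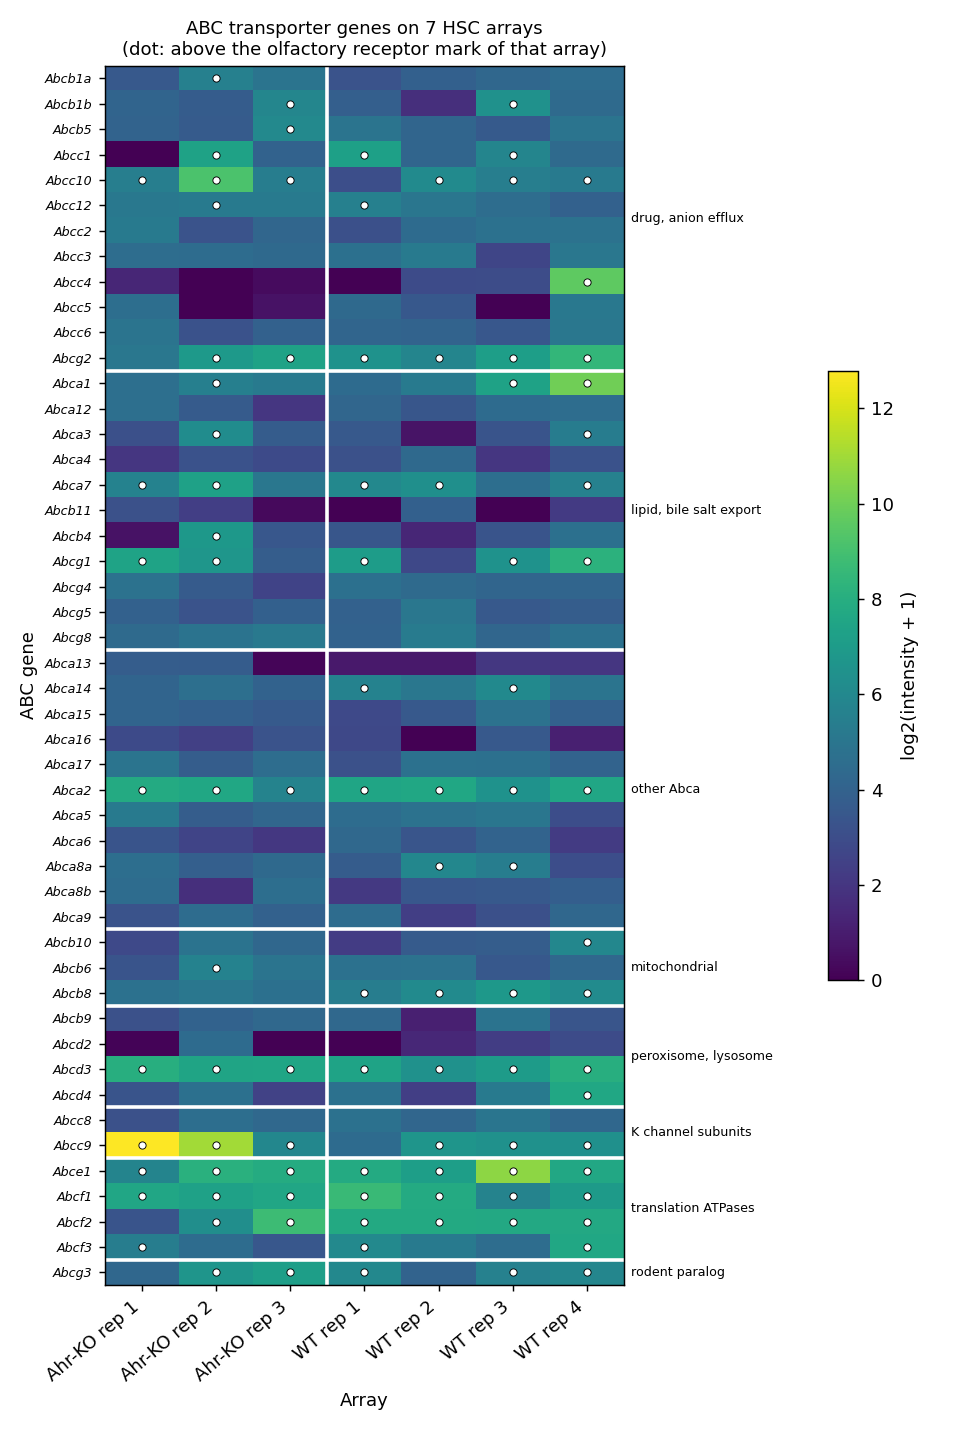
Log2(intensity + 1) of the 48 ABC genes (rows, grouped by role) on the 7 arrays (columns); white dots mark values above the olfactory receptor mark of that array. Rows filled with dots belong to Abca2, Abcd3, Abce1 and Abcf1, and the brightest cells are Abcc9 on Ahr-KO replicates 1 and 2.

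Among the drug and organic anion efflux genes, the side population pump gene Abcg2 (probe set 17459014) carried signal in both genotypes and did not separate them. Its intensities were 32.2, 119 and 166 in the Ahr-KO set against 89.7, 54.9, 142 and 352 in the WT set. The groups overlapped, with the lowest value on Ahr-KO replicate 1 and the highest on WT replicate 4, and 6 of the 7 arrays stood above background. The log2 difference came to -0.54 ± 0.81 (SE; 95% interval -2.42 to 1.35; limma adjusted p = 0.968). An exact two-sided permutation test over the 35 splits gave p = 0.571, where the smallest p they allow is 0.0286. Without Ahr-KO replicate 1 the difference was 0.16, so its sign rested on that array.

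A promoter window of Abcg2 is shown because Abcg2 is the family member most often tied to AhR. RefSeq (GRCm38.p6) gives 3 start sites for the gene, each with a window of 250 bases before to 50 after the start, and only the most downstream holds the AhR core. The deposited values do not say which start was used. That window lies at chr6:58640296-58640595 on the plus strand, with the core GCGTG in capitals, first base 20 bases into the transcript:
Abcg2: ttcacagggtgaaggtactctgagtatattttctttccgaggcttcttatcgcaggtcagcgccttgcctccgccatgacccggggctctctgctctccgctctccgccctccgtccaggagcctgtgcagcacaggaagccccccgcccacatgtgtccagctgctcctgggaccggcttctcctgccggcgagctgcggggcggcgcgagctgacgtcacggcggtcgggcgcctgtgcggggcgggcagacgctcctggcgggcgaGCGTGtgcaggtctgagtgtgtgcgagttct

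The P-glycoprotein genes gave little signal. Abcb1a (probe set 17434524), the main drug efflux pump gene of the blood-brain barrier, stood at 11.0, 46.7 and 29.3 in the Ahr-KO set against 8.64, 14.2, 18.0 and 22.2 in the WT set. It exceeded background on Ahr-KO replicate 2 alone, and the groups overlapped. The log2 difference came to 0.70 ± 0.61 (SE; 95% interval -0.71 to 2.11; limma adjusted p = 0.963; exact two-sided permutation p = 0.257), and 0.26 without Ahr-KO replicate 2. Its paralog Abcb1b (probe set 17434555) stood at 16.6, 12.4 and 57.0 in the Ahr-KO set against 13.7, 2.27, 86.5 and 20.1 in the WT set. The array above background in each genotype was replicate 3, and the log2 difference of 0.47 ± 1.09 (SE, limma adjusted p = 0.978, exact two-sided permutation p = 0.857) turned to -0.17 without Ahr-KO replicate 3 and -0.33 without WT replicate 2. The coding sequences of these paralogs are similar, so probes may be shared, which was not checked. The Abcb1a window, at chr5:8566841-8567140 on the plus strand, is printed as the other pump promoter and holds no GCGTG on either strand:
Abcb1a: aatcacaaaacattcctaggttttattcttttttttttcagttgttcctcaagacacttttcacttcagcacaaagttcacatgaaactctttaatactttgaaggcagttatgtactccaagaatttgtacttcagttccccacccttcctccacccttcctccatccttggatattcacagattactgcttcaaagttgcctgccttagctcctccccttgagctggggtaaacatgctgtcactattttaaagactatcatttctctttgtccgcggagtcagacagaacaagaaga

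**Figure D4:**
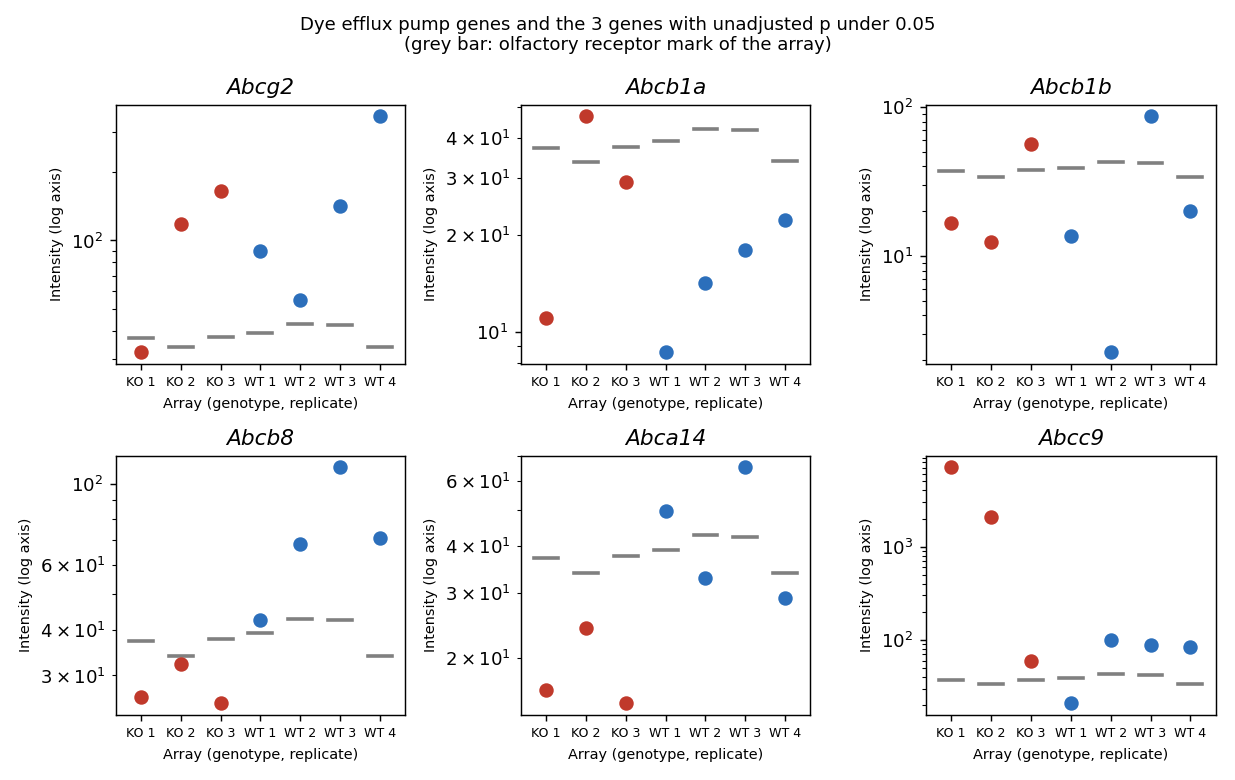
Intensity (log axis) of the dye efflux pump genes Abcg2, Abcb1a and Abcb1b and of Abcb8, Abca14 and Abcc9 on each array; red points are Ahr-KO, blue points WT, and grey bars the olfactory receptor mark of that array. Abcb8 lies below the mark on all 3 Ahr-KO arrays and above it on all 4 WT arrays. Its values on Ahr-KO replicate 2 and WT replicate 1 are close to the mark. Abcc9 reaches 7079 and 2075 on 2 Ahr-KO arrays.

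The multidrug resistance-associated protein genes of the Abcc branch export glutathione and glucuronide conjugates and other organic anions. Abcc1, which exports leukotriene C4, was listed at 0 on Ahr-KO replicate 1 and stood at 166 and 15.2 on the other Ahr-KO arrays, against 151, 17.1, 55.3 and 20.3 in WT. The estimate of -1.61 ± 1.62 log2 units (SE, limma adjusted p = 0.963) became 0.29 without Ahr-KO replicate 1. Abcc4, an exporter of cyclic nucleotides and prostaglandins, reached 774 on WT replicate 4. The Ahr-KO values were listed at 1.63, 0 and 0.29, and the other WT values at 0, 6.56 and 6.80. Its difference, -3.28 ± 1.97 (SE, limma adjusted p = 0.963), was -1.37 without WT replicate 4. Abcc10 exceeded background on 6 arrays and reached 584 on Ahr-KO replicate 2. Its other values were 43.3 and 41.5 in the Ahr-KO set against 7.30, 67.7, 42.6 and 38.0 in the WT set, so the groups overlapped. The difference was 1.72 ± 1.11 (SE, limma adjusted p = 0.963) and 0.47 without Ahr-KO replicate 2. Abcc2, Abcc3, Abcc5 and Abcc6 exceeded background on no array, Abcc12 on Ahr-KO replicate 2 and WT replicate 1, and Abcb5 on Ahr-KO replicate 3 alone. Of the 12 drug and organic anion efflux genes, 6 had higher and 6 lower means in Ahr-KO, with a median difference of 0.00 and none at an unadjusted p under 0.05.

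Abcb8 had the smallest unadjusted p of the family. It encodes an inner mitochondrial membrane transporter linked to iron export and to a mitochondrial potassium channel. Its intensity (probe set 17435311) was 26.2, 32.3 and 25.3 in the Ahr-KO set against 42.6, 68.6, 111 and 71.2 in the WT set. Every WT value was higher than every Ahr-KO value, and the mark was exceeded on all 4 WT arrays and on no Ahr-KO array. The means were 27.9 ± 3.80 (SD, n = 3) and 73.3 ± 28.1 (SD, n = 4), a log2 difference of -1.29 ± 0.48 (SE; 95% interval -2.39 to -0.19). The unadjusted limma p was 0.0268, the adjusted p was 0.963, and an exact two-sided permutation test gave p = 0.0571. The difference ran from -1.52 to -1.07 when single arrays were left out and was -0.97 with a pseudocount of 16. This pattern of background marks, on all WT and no Ahr-KO arrays, was shared by 36 of the 22180 genes (0.162%). Some values lay close to the mark: 32.3 against 33.8 on Ahr-KO replicate 2, and 42.6 against 39.1 on WT replicate 1. Abcb8 was singled out by its p in these same data, so this count is a description only. The other mitochondrial members did not share the pattern. Abcb6, of porphyrin transport, exceeded background on Ahr-KO replicate 2 alone. Abcb10, needed for heme synthesis in red cell precursors, did so on WT replicate 4 alone. Their log2 differences were 0.31 ± 0.67 (SE) and 0.09 ± 0.91 (SE), and the sign turned in 1 and 4 of 14 other fits. Those fits include some that cannot change an estimate.

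Abca14 was the second gene without overlap. It belongs to a rodent cluster with Abca15 and Abca16, its neighbours in the RefSeq table, and is best known from testis. Its intensity (probe set 17482381) was 16.5, 24.1 and 15.2 in the Ahr-KO set against 49.6, 32.9, 65.1 and 29.1 in the WT set. All Ahr-KO values were lower, but only WT replicates 1 and 3 exceeded background. The log2 difference came to -1.16 ± 0.48 (SE; 95% interval -2.27 to -0.05), with an unadjusted limma p of 0.0426, an adjusted p of 0.963 and an exact two-sided permutation p of 0.0571. It was -0.77 with a pseudocount of 16. Abca15 and Abca16 exceeded background on no array. The difference of Abca15 was 0.09, with the sign turned in 2 of 14 other fits, some of which cannot change an estimate.

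Abcc9 had the largest difference of the family in either direction. It encodes the sulfonylurea receptor SUR2, the regulatory subunit of ATP-sensitive potassium channels in heart, smooth muscle and pericytes. Its intensity (probe set 17472536) was 7079, 2075 and 60.1 in the Ahr-KO set against 21.2, 101, 87.9 and 84.9 in the WT set. Ahr-KO replicates 1 and 2 stood far above every other array, whereas Ahr-KO replicate 3 lay inside the WT range, so the groups overlapped. The log2 difference came to 3.90 ± 1.51 (SE; 95% interval 0.42 to 7.39), with an unadjusted limma p of 0.0324, an adjusted p of 0.963 and an exact two-sided permutation p of 0.114. It was 2.47 without Ahr-KO replicate 1 and 5.89 without Ahr-KO replicate 3. When an array was left out, the unadjusted limma p stayed under 0.05 only without Ahr-KO replicate 3 or WT replicate 2. It was not under 0.05 with a replicate block. Kcnj8, the pore subunit that pairs with SUR2, stood at 26.2, 110 and 41.5 in the Ahr-KO set against 9.99, 65.6, 12.2 and 3.81 in the WT set. It was below background on the array where Abcc9 was highest. Of 9 mural cell markers chosen after the Abcc9 values were seen, 3, 4 and 4 exceeded background in Ahr-KO and 2, 3, 4 and 3 did in WT. Their mean log2 level was 4.53, 4.99 and 4.96 in the Ahr-KO set against 4.47, 4.75, 5.33 and 4.57 in the WT set, and the groups overlapped. Myh11 exceeded background on all 7 arrays and Rgs5 on all but WT replicate 2. Kcnj8 and Acta2 did so on 3 arrays each, Notch3 on Ahr-KO replicates 1 and 3, Pdgfrb and Tagln on WT replicate 3 alone, and Cspg4 and Vtn on none. The 8 stroma and endothelium markers averaged 4.36, 6.33 and 4.99 in the Ahr-KO set against 4.17, 5.22, 5.69 and 6.24 in the WT set. The part of these markers in the Abcc9 values was not tested. Abcc8, which encodes the related SUR1 of pancreatic beta cells, exceeded background on no array.

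Of 11 genes for cholesterol, phospholipid and bile salt export, 5 had higher and 6 lower means in Ahr-KO, with a median of -0.17 and none at an unadjusted p under 0.05. Abca1, which loads cholesterol onto apolipoprotein A-I, stood at 24.4, 44.3 and 36.7 in the Ahr-KO set against 21.0, 37.1, 165 and 1022 in the WT set. The first 2 WT values lay within or below the Ahr-KO range, and the log2 difference of -1.63 ± 1.24 (SE, limma adjusted p = 0.963) was -0.56 without WT replicate 4. Abcg1, which passes cholesterol to HDL and with Abca1 is known to restrain HSC proliferation in mice, stood at 168, 105 and 12.8 in the Ahr-KO set against 134, 5.75, 91.2 and 294 in the WT set. It exceeded background on 5 arrays, and 1 array of each genotype fell far below it. The genotypes differed by -0.17 ± 1.39 log2 units (SE, limma adjusted p = 0.996), and 0.92 without Ahr-KO replicate 3. Abca7, of phospholipid export and phagocytosis, exceeded background on 5 arrays, and Abca3, the surfactant lipid transporter, on Ahr-KO replicate 2 and WT replicate 4. Abcb4, the phosphatidylcholine floppase of bile, reached 114 on Ahr-KO replicate 2 and was at 0.55 and 10.03 on the other Ahr-KO arrays. Abca12, a lipid transporter of skin, differed by -0.70 ± 0.69 (SE, limma adjusted p = 0.963) and, like Abca4 of the retina, Abcb11 of bile salt export, Abcg4 and the sterol pair Abcg5 and Abcg8, exceeded background on no array.

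The remaining Abca genes were mostly dark, apart from Abca2. Abca2, a lysosomal lipid transporter known from myelinating cells, stood at 224, 197 and 51.6 in the Ahr-KO set against 181, 198, 91.3 and 186 in the WT set, above background on all 7 arrays. The groups overlapped, and the log2 difference came to -0.25 ± 0.64 (SE; 95% interval -1.74 to 1.23; limma adjusted p = 0.980). It was 0.41 without Ahr-KO replicate 3. Of the 5 neighbouring genes Abca5, Abca6, Abca8a, Abca8b and Abca9, Abca8a alone exceeded background, on WT replicates 2 and 3. Abca13 and Abca17 did so on no array.

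Of the 4 soluble ATPases of translation, 3 had lower means in Ahr-KO. None had an unadjusted p under 0.05. Abce1, which splits ribosomes for recycling after termination, stood at 53.3, 275 and 231 in the Ahr-KO set against 225, 144, 1562 and 204 in the WT set. The groups overlapped, with WT replicate 3 far above the rest. The log2 difference of -1.08 ± 0.97 (SE; 95% interval -3.31 to 1.15; limma adjusted p = 0.963) was -0.32 without that array. Abcf2 was nearly constant in WT, at 214, 217, 207 and 211, and scattered in Ahr-KO, at 9.08, 79.9 and 428. Its difference was -1.60 ± 1.11 (SE, limma adjusted p = 0.963) and -0.19 without Ahr-KO replicate 1. Abcf1, which takes part in translation initiation, was steady in Ahr-KO, at 188, 159 and 189, and ran from 52.2 to 410 in WT, for a log2 difference of 0.18 ± 0.71 (SE, limma adjusted p = 0.988). Abcf3 stood at 41.2, 22.0 and 10.3 in the Ahr-KO set against 63.2, 37.1, 22.7 and 195 in the WT set, a difference of -1.39 ± 0.82 (SE, limma adjusted p = 0.963), and -0.80 without WT replicate 4.

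Of the peroxisomal and lysosomal members, Abcd3 stood above background on every array. It encodes the peroxisomal membrane protein PMP70, which imports branched-chain and dicarboxylic fatty acids. Its intensities were 254, 177 and 184 in the Ahr-KO set against 171, 87.5, 127 and 257 in the WT set. The means were 205 ± 42.8 (SD, n = 3) and 161 ± 72.7 (SD, n = 4). The log2 difference came to 0.44 ± 0.51 (SE; 95% interval -0.74 to 1.62; limma adjusted p = 0.964), smaller than the spread between arrays. It was 0.19 without WT replicate 2 and 0.70 without WT replicate 4. Abcd4, a lysosomal protein of cobalamin export, exceeded background on WT replicate 4 alone, at 196, and Abcd2 and the lysosomal peptide transporter gene Abcb9 on no array. Abcg3, a rodent paralog of Abcg2, stood at 18.2, 102 and 142 in the Ahr-KO set against 62.3, 15.8, 49.0 and 57.0 in the WT set. The groups overlapped, and the difference was 0.65 ± 0.83 (SE, limma adjusted p = 0.966). It was 0.089 without Ahr-KO replicate 3 and 1.54 without Ahr-KO replicate 1.

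Abcb1a, Abcb1b and Abcb4 lie next to each other in the RefSeq table. Abcb1a and Abcb4 were highest on Ahr-KO replicate 2 and Abcb1b on WT replicate 3. Abcg5 and Abcg8 start head to head. The Abcg5 window and 1 of the Abcg8 windows, at chr17:84682962-84683261 and chr17:84682871-84683170, share 209 bases, and neither gene exceeded background on any array.

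Of the 48 ABC genes, 38 had a RefSeq promoter window, 45 windows in all. The AhR core GCGTG, searched on both strands, occurred in 16 of the 45, or 35.6%, beside 32.4% of all 32851 windows of the same length. The longer form TNGCGTG, which contains the core, occurred in 1, or 2.22%, beside 5.07%. Counted by gene, the core occurred in 16 of 38 ABC genes, or 42.1%, beside 35.2% of all genes with a window. The longer form occurred in 2.63% of these ABC genes, beside 5.84%. These shares describe the windows and say nothing of AhR binding. The longer match was in Abcc4. Short stretches are shown for it and for the translation genes and Abcd3, and for Abcd3 and Abcf3, which have several, the core nearest the start is the one shown. Each is on the strand of its gene, with capitals for the core or its reverse complement CACGC. In Abcc4 the capitals mark the longer form, and another copy of the core follows it in lower case:
Abcc4 (chr14:118706304-118706330, minus strand): cctgcgctctCACGCGAcacgcttctc
Abcd3 (chr3:121815346-121815370, minus strand): gggggtccgcGCGTGcgcagagcgt
Abce1 (chr8:79711691-79711705, minus strand): ctctgtcgcgCACGC
Abcf1 (chr17:35969852-35969876, minus strand): gcaatgccgcCACGCccctttgccc
Abcf2 (chr5:24577390-24577414, minus strand): gagccggccgCACGCggaggagctc
Abcf3 (chr16:20548521-20548545, plus strand): cccctggactCACGCagactctgct
The differences between genotypes of these genes ran from -3.28 for Abcc4 to 0.44 for Abcd3, and no gene among them passed the threshold.

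Genes that work beside ABC transporters gave no adjusted call either, with limma adjusted p-values near 0.96 for those named here. Single genes without overlap between genotypes are pointed out or counted below, and 5.78% of all genes had none. The ABC proteins under other symbols are Tap1 and Tap2, which pump peptides to MHC class I, and the chloride channel gene Cftr. Of these 3, 1 (33.3%, beside 4.02% of all genes) had an unadjusted p under 0.05. Tap1 stood at 186, 82.5 and 76.6 in the Ahr-KO set against 190, 203, 134 and 273 in the WT set, a log2 difference of -0.87 ± 0.51 (SE). Tap2 differed by -2.04 ± 0.88 (SE) without overlap, or -1.25 without WT replicate 3, and exceeded background on that array alone. Cftr, at 1.72, exceeded background on no array. The 7 peptide-loading partners of Tap all had higher means in Ahr-KO, with a median difference of 0.61 and none at an unadjusted p under 0.05. Among them the chaperones Calr and Canx differed by 0.74 and 0.84, and Calr was the 1 of the 7 without overlap. Its difference was 0.47 without Ahr-KO replicate 1.

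Of 19 measured factors that control transporter genes, 11 had higher means in Ahr-KO, and 1 (5.26%, beside 4.02% of all genes) had an unadjusted p under 0.05. That was Pparg, a nuclear receptor of lipid metabolism that raises Abca1 and Abcg1 in macrophages, at 11.7, 347 and 433 in the Ahr-KO set against 0, 9.79, 36.1 and 6.90 in the WT set. Its difference was 4.05 ± 1.55 (SE). Ahr-KO replicate 1 lay within the WT range, and the difference was 2.64 with a pseudocount of 16. The sterol regulator Srebf1 differed by -1.77 ± 1.05 (SE), with -1.06 without Ahr-KO replicate 3 and -3.07 without Ahr-KO replicate 2 (limma adjusted p = 0.717 in that fit). Of 12 genes of cholesterol uptake, storage and carriage, 6 were higher and 6 lower, and 1 (8.33%) had an unadjusted p under 0.05. Hmgcs1, an early enzyme of cholesterol synthesis, stood at 60.3, 142 and 296 in the Ahr-KO set against 15.5, 6.44, 57.6 and 9.56 in the WT set without overlap. Its difference was 3.05 ± 0.85 (SE), or 2.20 with a pseudocount of 16. Mylip, which degrades the LDL receptor, differed by 1.74, but leaving out WT replicate 2, whose value is listed as 0, gave 0.31.

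Of 13 heme and iron-sulfur genes, 8 had higher means in Ahr-KO, and 1 (7.69%, beside 4.02% of all genes) had an unadjusted p under 0.05. Urod, of heme synthesis, stood at 571, 521 and 1660 in the Ahr-KO set against 433, 175, 285 and 356 in the WT set without overlap, a difference of 1.41 ± 0.59 (SE), or 0.88 without Ahr-KO replicate 3. The heme exporter Flvcr1 differed by 1.42, but leaving out Ahr-KO replicate 1 gave 0.28. Among 8 genes of ribosome recycling and Gcn2 signalling, 5 were higher, and 2 (25%, beside 4.02% of all genes) had an unadjusted p under 0.05. Eif2ak4, the amino acid sensor kinase Gcn2, stood at 29.7, 201 and 232 in the Ahr-KO set against 5.81, 0.85, 7.94 and 27.9 in the WT set without overlap. It was above background on 2 Ahr-KO arrays and no WT array. Its difference was 3.90 ± 1.07 (SE), or 2.44 with a pseudocount of 16. Pelo, which works with Abce1 on stalled ribosomes, differed by 1.92 ± 0.82 (SE), but by -0.67 when its probe sets were averaged.

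Of 11 peroxisome genes, 7 had higher means in Ahr-KO and none had an unadjusted p under 0.05. Of the same genes, 1 was without overlap (9.09%, beside 5.78% of all genes). Pex16 differed by 1.08 (0.44 without Ahr-KO replicate 1) and Pex14 by 2.01 (0.81 without WT replicate 3). The 25 SLC and SLCO carriers of drugs and organic ions divided into 12 higher and 13 lower. An unadjusted p under 0.05 was found for 2 (8%, beside 4.02% of all genes). Without overlap were 2 (8%, beside 5.78% of all genes), both lower. Slc22a5, the carnitine importer, stood at 8.73, 13.3 and 7.95 in the Ahr-KO set against 28.7, 32.9, 82.6 and 33.2 in the WT set without overlap, a difference of -1.94 ± 0.53 (SE). It exceeded background on WT replicate 3 alone. The prostaglandin carrier Slco2a1 stood at 455, 130 and 19.4 in the Ahr-KO set against 20.4, 18.8, 16.5 and 10.4 in the WT set. Its difference was 2.65 ± 0.97 (SE), or 1.60 without Ahr-KO replicate 1, and the lowest Ahr-KO value lay within the WT range.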

How the data were processed

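Expression was measured in HSCs with 7 single-channel Affymetrix arrays, 3 Ahr-KO and 4 WT. The deposited table holds 1 linear intensity per probe set and array for 41155 rows; the submitters' processing notes name Affymetrix Expression Console, and neither the summarization algorithm nor the normalization is stated in the labels. The platform annotation listed 25335 rows, 23521 with 1 symbol. Intensities were transformed as log2(intensity + 1). The added 1 understates changes of dim genes, yet values near 0 can still give large log2 differences. With a pseudocount of 16, Abcc1 moved from -1.61 to -0.45, Abcc4 from -3.28 to -1.60 and Cftr from 1.72 to 0.34. The log2 values were modelled in R 4.3.3 by limma 3.58.1 over the 25335 annotated rows, with genotype as the only term. Tests were two-sided, with Benjamini-Hochberg adjustment over those rows at 0.05. SEs are moderated by limma. On simulated arrays with independent noise, the fit was checked only for returning the shift that had been added. That check sets no requirement on how many changes are detected. Precision is limited by how few arrays there are.

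Members, gene lists and the olfactory receptor mark were chosen with earlier results of these data known. Named by rule were Abcg2, Abcb1a and Abcb1b, members with an unadjusted p under 0.05 or without overlap, members above background on all 7 arrays, up to 2 with the smallest p in uncovered role groups and in each related list, Slamf1 and Ahr. Other members were described to account for the whole family, after their values were seen. Replicate numbers are shared between genotypes, but the labels do not say that they pair samples.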

Additional observations from a re-analysis of the deposited data

Results flagged for a closer look

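Among the 48 ABC genes, 2 had a WT array whose log2 value lay far from the other 3 by Dixon's criterion, which flags about 1 in 20 groups by chance. Abca2 had a log2 value of 6.53 on WT replicate 3 (intensity 91.3), with the next lowest WT array at 7.51. Abcc9 had a log2 value of 4.47 on WT replicate 1 (intensity 21.2), with the next lowest WT array at 6.42.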

How the results depend on the processing

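Among the ABC genes and among all tested probe sets, 0 passed an adjusted p of 0.05 in every fit run: leaving out each array, a replicate block, quantile normalization, median centring, a pseudocount of 16, a filter on dim probe sets, all 41155 rows, gene means over probe sets and a trended variance prior. ABC genes with an unadjusted p under 0.05 numbered 3 of 48, beside 4.21% of all tested probe sets. In the fits lacking an array they numbered between 0 and 4, beside 3.77 to 5.29% of all tested probe sets. There were 0 without Ahr-KO replicate 1 or WT replicate 3. With the replicate number as a block they numbered 0, beside 4.42% of all tested probe sets. Deviations of same-numbered arrays correlated at 0.02, -0.06 and 0.01, so the numbers were not taken to pair the arrays. Non-overlapping ABC genes numbered 2, and 3 to 7 when an array was left out. Fewer arrays make overlap less likely, and the share over all probe sets was not computed for those fits. Abcb8 and Abca14 were among the non-overlapping genes in every fit, but leaving out an array cannot make separated groups overlap. Of the other fits, only quantile normalization and median centring could have changed the order of a gene's values. The ABC median difference ran from -0.14 to 0.14 when arrays were left out, and was -0.21 over the 18 ABC genes kept by the dim filter, -0.01 with a pseudocount of 16, 0.14 with the block and 0.13 with median centring or quantile normalization. Genes above background on all 7 arrays numbered 4, and 5 and 0 with the 90th and 99th percentile of the olfactory receptor probe sets as the mark. Some fits cannot turn a sign: the dim filter, all rows, gene means and the trended prior left the estimate of each ABC gene they kept unchanged. The block gave the same estimates as leaving out WT replicate 4. Of the 48 ABC differences, 24 kept their sign in every fit, 10 higher and 14 lower in Ahr-KO, and the other 24 turned in at least 1 fit. Among these, leaving out arrays turned the sign of Abcg2 (-1.003 to 0.16), Abcb1b (-0.33 to 1.25), Abcc1 (-3.40 to 0.29), Abca2 (-0.64 to 0.41), Abca12 (-1.32 to 0.015), Abcf1 (-0.34 to 0.64) and Abcg1 (-1.30 to 0.92; 0.52 with the block). Pelo turned to -0.67 as a mean over probe sets. The causes were not tested.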
